A study of Homo sapiens with 4 samples.

Results

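The genes described here are 10 amino acid carriers of the plasma membrane, SLC7A5, SLC3A2, SLC1A5, SLC38A1, SLC7A1, SLC7A6, SLC38A2, SLC7A2, SLC38A3 and SLC38A4. They were named by symbol and found through the annotation of the array's probes. No measured value entered this rule, but the choice was made with earlier results of these data known. All 10 were present, read by 14 of the 28264 probes and taken from 19090 genes. The study used Huh7, an established cell line from a human hepatocellular carcinoma, and hybridised its RNA to 4 single-colour microarrays. The shACOT12 cells stably carried an shRNA (a short hairpin RNA meant to lower a messenger RNA) against ACOT12, an acetyl-CoA thioesterase, and the control cells stably carried a scramble shRNA, with 2 arrays each. Both lines had been selected with puromycin and grown in the same serum-containing medium, and no further treatment was given. Whether replicate arrays stand for separate cultures is not stated in the labels, so every p-value rests on a spread that may be purely technical.

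Carriers of the SLC families move amino acids across the cell membrane and set how much of each a cell can use. SLC7A5 (LAT1) exchanges large neutral amino acids such as leucine for intracellular glutamine and works only as a dimer with the heavy chain SLC3A2 (CD98). SLC1A5 (ASCT2) and SLC38A1 (SNAT1) bring in glutamine, and many tumours have high levels of these carriers together with SLC7A1 (CAT1), which carries arginine and lysine. Hepatocytes instead rely on SLC7A2 (CAT2) for cationic amino acids, on SLC38A3 (SNAT3) for glutamine and on SLC38A4 (SNAT4) for small neutral amino acids. SLC38A2 (SNAT2) and SLC7A6, a light chain that also pairs with SLC3A2, are found in many tissues. Starved cells raise several carriers through the kinase GCN2 and the transcription factor ATF4.

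Promoter sequence is shown for SLC7A5, as the tumour type carrier, and for the chromosome 12 genes SLC38A2 and SLC38A4, a widely expressed and a hepatocyte type carrier with no other measured protein-coding gene between them. Both SLC38 genes also had their lowest value on the same array, scramble replicate 2, as did SLC7A1, SLC1A5 and 26.4% of all genes. SLC38A1, which adjoins them, had its highest value on that array. Each sequence is the 250 bases before the gene's start in the RefSeq promoter table (build GRCh38.p14, minus strand for all 3), at chr16:87869508-87869757 for SLC7A5, chr12:46372774-46373023 for SLC38A2 and chr12:46825998-46826247 for SLC38A4. The table held 8 of the 10 genes. Capitals mark the motif GGGCGG, known as the GC box, the motif CACGTG, known as the E-box and bound by MYC among others, and the motif TATAAA, known as the TATA box, each searched on both strands.
SLC7A5: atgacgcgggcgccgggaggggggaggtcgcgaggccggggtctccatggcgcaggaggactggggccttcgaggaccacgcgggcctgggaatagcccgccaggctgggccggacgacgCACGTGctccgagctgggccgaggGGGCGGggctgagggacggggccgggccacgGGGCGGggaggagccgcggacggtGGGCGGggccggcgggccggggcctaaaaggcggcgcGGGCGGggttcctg
SLC38A2: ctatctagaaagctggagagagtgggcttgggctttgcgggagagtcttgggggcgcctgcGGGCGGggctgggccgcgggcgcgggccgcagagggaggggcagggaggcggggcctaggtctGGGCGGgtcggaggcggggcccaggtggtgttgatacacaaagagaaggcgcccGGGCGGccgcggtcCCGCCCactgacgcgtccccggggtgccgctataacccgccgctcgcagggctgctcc
SLC38A4: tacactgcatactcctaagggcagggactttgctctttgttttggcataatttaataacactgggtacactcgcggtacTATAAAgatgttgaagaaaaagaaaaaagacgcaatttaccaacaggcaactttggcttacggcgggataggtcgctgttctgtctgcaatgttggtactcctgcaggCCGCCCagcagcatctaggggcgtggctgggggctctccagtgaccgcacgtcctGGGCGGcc
The SLC7A5 window held 4 GC boxes, 34 CpG dinucleotides and 1 E-box. The SLC38A2 window held 4 GC boxes and 26 CpG dinucleotides. The SLC38A4 window held 2 GC boxes, 11 CpG dinucleotides and 1 TATA box, which began 171 bases before the start. Of 35116 windows of this length, 42.6% held a GC box, 6.34% an E-box and 10.7% a TATA box. The letters TGATGNAA, the core of ATF4 response elements, were in none of the 3 windows and in 3.14% of all. These matches describe letters and are not shown to be sites in use, and nothing outside the windows, such as sequence within the genes, was searched.

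Set against scramble cells, in a comparison meant to find genes downstream of ACOT12, the shACOT12 cells showed no change past the threshold in any of the 10 carriers (limma, adjusted p = 1 for each, adjusted over all genes). Under the same test 1 of 19090 genes passed, or 0.00524%. At an unadjusted p under 0.05 the same fit gave 0 of the 10 carriers, against 1.76% of all genes. Of the 10, 6 had a positive and 4 a negative log2 fold change (shACOT12 minus scramble throughout), where 51.4% of all genes were positive. The median of the 10 was 0.14, against 0.01 over all genes. The median size of the change, regardless of sign, was 0.20 for the carriers and 0.16 for all genes, and 0.15 for the 9545 genes at or above the median level. Without 1 array at a time, the carriers' median ranged from -0.08 to 0.21 and the number positive from 4 to 6.

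The groups did not overlap for 3 of the 10 carriers, SLC3A2 with higher values and SLC7A6 and SLC7A2 with lower values in shACOT12 cells. Over all genes the groups did not overlap for 21.5%, with 11.5% higher and 10% lower. For 9 of the 10 carriers the difference between groups was smaller than the larger of the gaps between the arrays within a group. The exception was SLC7A2. With 2 arrays a group, an exact permutation test cannot give a two-sided p below 0.333.

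ACOT12 itself, the targeted gene, was read by 1 probe, and its mean lay below the median of all genes. It stood at a log2 intensity of 7.58 and 7.37 on shACOT12 replicates 1 and 2, against 8.28 and 7.47 on scramble replicates 1 and 2. Its log2 fold change was -0.40 (95% interval -1.24 to 0.44, limma adjusted p = 1), so a reduction of its RNA was not detected. Hepatocyte and hepatoma markers were bright, with all 10 measured of 12 at or above the median of all genes. Of these 10, 4 had a positive and 6 a negative log2 fold change (median -0.02), with ALB at 0.49 and AFP at -0.78, and none passed the threshold. Of the stromal markers 1 of 7 reached the median, of the endothelial markers 0 of 6, and of the leukocyte markers 2 of 5, LYZ and CD14. The leukocyte gene PTPRC lay between 5.39 and 6.09 on the 4 arrays. For the 5 leukocyte markers, the log2 of the summed intensity was 15.11 and 15.37 for shACOT12, against 15.41 and 15.60 for scramble. LYZ and CD14, at 13.61 or above on every array, made up nearly all of it. PTPRC, CD3E and CD68 stayed at 8.81 or below. The part of this sum in any result was not tested.

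**Figure D1:**
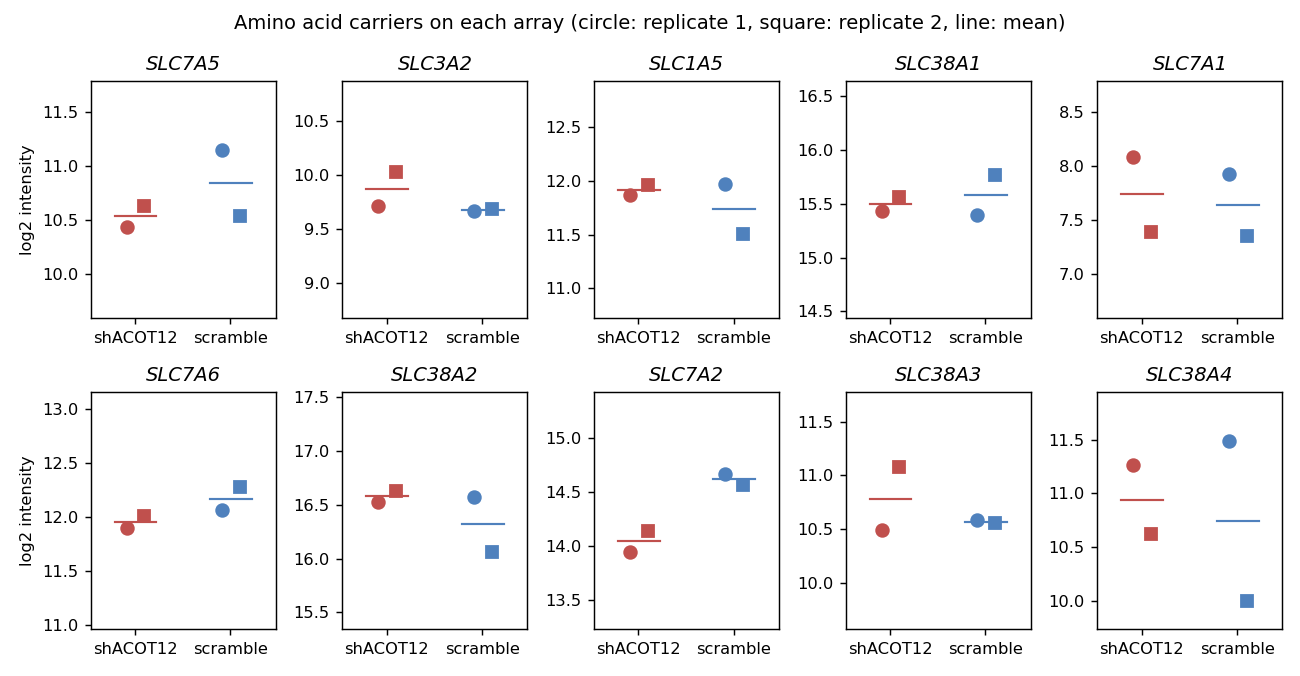
Log2 intensity (vertical axis, 1 panel a gene, each spanning the same range of 2.2) of the 10 carriers on each array, shACOT12 left and scramble right, with circles for replicate 1, squares for replicate 2 and a line at the group mean. SLC7A2 has the clearest gap between groups, while the 2 scramble arrays of SLC38A4 lie 1.48 apart.

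Among the tumour type carriers, SLC7A5, the leucine exchanger, was read by 1 probe. Its log2 intensity was 10.44 and 10.63 on shACOT12 replicates 1 and 2, against 11.15 and 10.54 on scramble replicates 1 and 2. Scramble replicate 1 alone stood high, and the other scramble array lay between the shACOT12 arrays. The means were 10.53 ± 0.14 in shACOT12 and 10.85 ± 0.43 in scramble cells (SD, n = 2 each), which gave a log2 fold change of -0.31 (SE 0.32, 95% interval -1.08 to 0.45, limma adjusted p = 1). Without scramble replicate 1 it was -0.01 and without scramble replicate 2 it was -0.62, so its size rested on scramble replicate 1.

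SLC3A2, the heavy chain that carries SLC7A5 and SLC7A6 to the membrane, had 9.71 and 10.03 on the shACOT12 arrays, against 9.67 and 9.68 on the scramble arrays. The scramble arrays nearly coincided, and only shACOT12 replicate 2 stood clearly above them. The log2 fold change was 0.19 (SE 0.28, 95% interval -0.48 to 0.87, limma adjusted p = 1). Without shACOT12 replicate 2 it was 0.03. The heavy chain and its light chain SLC7A5 thus had log2 fold changes of opposite sign, neither past the threshold.

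SLC1A5, a glutamine and small neutral amino acid exchanger, had 11.86 and 11.96 on the shACOT12 arrays, against 11.97 and 11.51 on the scramble arrays. Only scramble replicate 2 was low. This gave a log2 fold change of 0.17 (SE 0.30, 95% interval -0.54 to 0.89, limma adjusted p = 1), and it turned to -0.06 without scramble replicate 2.

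SLC38A1, a sodium-coupled glutamine importer, had 15.43 and 15.56 on the shACOT12 arrays, against 15.40 and 15.76 on the scramble arrays. The shACOT12 arrays lay between the scramble arrays. The estimate was a log2 fold change of -0.08 (SE 0.29, 95% interval -0.77 to 0.61, limma adjusted p = 1). A second, dimmer probe gave -0.32, with overlapping groups. Without scramble replicate 2 the first probe turned to 0.10.

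SLC7A1, the arginine and lysine carrier of most dividing cells, was the only one of the 10 whose mean fell below the median of all genes. It had 8.09 and 7.39 on the shACOT12 arrays, against 7.93 and 7.35 on the scramble arrays. In each group the array numbered 1 was the higher, and the groups overlapped throughout. On balance the log2 fold change was 0.10 (SE 0.36, 95% interval -0.77 to 0.97, limma adjusted p = 1). It turned to -0.25 without shACOT12 replicate 1 and to -0.19 without scramble replicate 2.

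Of the widely expressed carriers, SLC7A6, an exchanger of cationic and large neutral amino acids, had 11.89 and 12.01 on the shACOT12 arrays, against 12.06 and 12.28 on the scramble arrays. Both shACOT12 arrays were lower, but the nearest values of the groups were only 0.05 apart, less than the gap within either group. The log2 fold change was -0.22 (SE 0.28, 95% interval -0.88 to 0.45, limma adjusted p = 1). Its second, dimmer probe gave -0.04 with overlapping groups, with 9.58 and 8.60 on the shACOT12 arrays, against 9.69 and 8.57 on the scramble arrays. The brighter probe gave -0.11 without scramble replicate 2 and -0.32 without scramble replicate 1.

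SLC38A2, the carrier that cells raise on amino acid shortage, had 16.52 and 16.63 on the shACOT12 arrays, against 16.57 and 16.06 on the scramble arrays. Scramble replicate 1 lay between the shACOT12 arrays and scramble replicate 2 below them. Its log2 fold change was 0.26 (SE 0.30, 95% interval -0.47 to 0.99, limma adjusted p = 1), and without scramble replicate 2 it was 0.0034.

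SLC7A2, the cationic amino acid carrier of hepatocytes, had the largest difference of the 10 carriers when each was read by its brightest probe, and its probes disagreed. The brighter probe had deposited intensities of 15892 and 18049 on the shACOT12 arrays, against 26149 and 23636 on the scramble arrays. On the log2 scale these were 13.95 and 14.14 for shACOT12 and 14.67 and 14.57 for scramble cells. Both shACOT12 arrays were lower, with a clear space between the groups. The means were 14.04 ± 0.13 in shACOT12 and 14.62 ± 0.07 in scramble cells (SD, n = 2 each), which gave a log2 fold change of -0.58 (SE 0.28, 95% interval -1.24 to 0.08, limma unadjusted p = 0.0763, adjusted p = 1). This is 0.67 of the scramble level, with an interval of 0.425 to 1.06. Without 1 array it ranged from -0.67 to -0.48.

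The dimmer SLC7A2 probe went the other way. It had deposited intensities of 1569 and 1449 on the shACOT12 arrays, against 1241 and 1062 on the scramble arrays. The log2 values were 10.71 and 10.41 for shACOT12 and 10.30 and 10.01 for scramble cells, again with no overlap. Its log2 fold change was 0.41 (SE 0.30, 95% interval -0.30 to 1.12, limma adjusted p = 1). The log2 difference between the brighter and the dimmer probe was 3.23 and 3.73 on the shACOT12 arrays, against 4.38 and 4.56 on the scramble arrays. It was lower in shACOT12 cells by 0.99 on average (difference -0.99, exact two-sided permutation p = 0.333, the smallest that 2 arrays a group allow). Each probe alone had groups without overlap, in opposite directions, so this p was fixed beforehand and tests nothing. The mean of both probes gave a log2 fold change of -0.08, the smallest in size of the 10 carriers under that setting. SLC7A2 is known to make CAT2A and CAT2B by alternative splicing, and where its probes lie in the transcript is not given in the sources used here.

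SLC38A3, the glutamine carrier of hepatocytes around the central vein, had 10.49 and 11.08 on the shACOT12 arrays, against 10.59 and 10.56 on the scramble arrays. The scramble values lay between the shACOT12 values. Between groups the log2 fold change was 0.21 (SE 0.31, 95% interval -0.54 to 0.96, limma adjusted p = 1), and without shACOT12 replicate 2 it turned to -0.08.

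SLC38A4, a hepatocyte carrier of small neutral amino acids, was the most variable of the 10. Its deposited intensities were 2317 and 1661 on the shACOT12 arrays, against 2855 and 1062 on the scramble arrays, or 11.26 and 10.62 against 11.49 and 10.00 on the log2 scale. The scramble arrays were the highest and the lowest of the 4. The log2 fold change was 0.19 (SE 0.52, 95% interval -1.04 to 1.43, limma adjusted p = 1). It was -0.55 without scramble replicate 2 and 0.94 without scramble replicate 1, and -0.12 without shACOT12 replicate 1. The second, dimmer probe gave 0.47, with overlapping groups and the same array, scramble replicate 2, lowest.

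**Figure D2:**
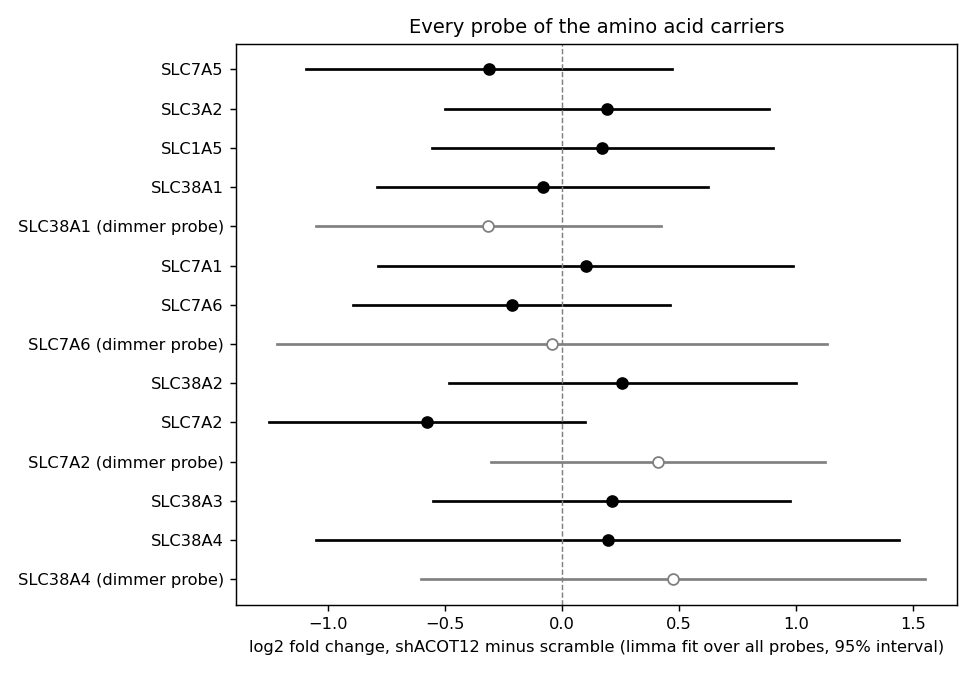
Log2 fold change, shACOT12 minus scramble (horizontal axis), of the 14 probes of the 10 carriers with 95% intervals from a limma fit over all probes, with filled points for the brightest probe of a gene and open points for a dimmer one. Every interval holds 0, and the SLC7A2 probes lie on opposite sides of it, at -0.58 and 0.41.

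The intervals show how precisely each change was estimated, and not how large a change would pass the threshold. Each bound lay 0.66 from the log2 fold change for SLC7A2, the narrowest interval, and 1.23 for SLC38A4, the widest. For SLC38A1 the interval of the fold itself ran from 0.585 to 1.52, for SLC7A5 from 0.473 to 1.37 and for SLC38A2 from 0.723 to 1.98, each as a multiple of the scramble level. On simulated data with 2 arrays a group, the same fit called 0 of 335 changes of log2 size 1. It called 26.9% of those of size 2 and 82.1% of those of size 3. The simulated errors were independent between arrays and followed the spread fitted over all genes, whatever their level. The carriers had a median SD within groups of 0.25, against 0.29 over all genes, so these shares are not specific to them. The number of arrays limits the precision, and a p above the threshold does not show that the carriers were alike in both lines.

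The carriers were also set apart by type, 5 counted as tumour type and 3 as hepatocyte type. The mean log2 intensity of the 5 tumour type carriers was 11.11 and 11.11 on the shACOT12 arrays, against 11.22 and 10.97 on the scramble arrays. That of the 3 hepatocyte type carriers was 11.90 and 11.94 on the shACOT12 arrays, against 12.25 and 11.71 on the scramble arrays. In both sets the shACOT12 values lay between the scramble values, and scramble replicate 2 was lowest. Single carriers followed this in part. Scramble replicate 2 was the lowest array for SLC7A1, SLC1A5, SLC38A2 and SLC38A4 and the highest for SLC7A6 and SLC38A1, so that it was at an extreme for 6 of the 10 carriers, as for 63.5% of the genes at or above the median level. Scramble replicate 1 was at an extreme for 6 carriers as well, against 45.0% of those genes.

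Other genes of amino acid transport and sensing were read from 6 lists with 119 measured genes, and none passed the threshold (limma, adjusted over all genes). Only SLC1A3 had an unadjusted p under 0.05 (limma), against 1.76% of all genes. Among 22 other plasma membrane carriers 11 had a positive and 11 a negative log2 fold change, with a median of 0.0032. The values furthest from 0 belonged to genes whose groups overlapped, named after these values were seen. SLC6A19, a neutral amino acid carrier of gut and kidney, had 11.73 and 8.40 on the shACOT12 arrays, against 11.27 and 11.96 on the scramble arrays. Its log2 fold change of -1.55 rested on shACOT12 replicate 2 and was 0.11 without it, and its second, dimmer probe gave 0.64. SLC36A2, a dim carrier of small amino acids, stood at 0.73, and at 0.06 without scramble replicate 1. SLC7A10, a small neutral amino acid exchanger, had 12.48 and 12.96 on the shACOT12 arrays, against 12.45 and 12.18 on the scramble arrays, a log2 fold change of 0.40 (limma adjusted p = 1). Its nearest values from different groups, 12.48 and 12.45, almost touched. It was 0.17 without shACOT12 replicate 2, 0.64 without shACOT12 replicate 1 and 0.27 without scramble replicate 2.

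Among 6 carriers of acidic amino acids and cystine, 5 had a negative log2 fold change, with a median of -0.05, and 2 to 3 were positive without 1 array. The groups did not overlap for 1 of the 6, against 21.5% of all genes. This was SLC1A3, a glutamate and aspartate importer best known from astrocytes. It had deposited intensities of 3571 and 2928 on the shACOT12 arrays, against 1385 and 1620 on the scramble arrays. Both shACOT12 arrays stood well above both scramble arrays, with means of 11.66 ± 0.26 and 10.53 ± 0.11 on the log2 scale (shACOT12 and scramble, SD, n = 2 each). The log2 fold change was 1.13 (SE 0.29, 95% interval 0.43 to 1.82, limma unadjusted p = 0.00667, adjusted p = 1), and without 1 array it ranged from 0.94 to 1.32. Its second, dimmer probe gave 0.39, also with no overlap. The lowest of its adjusted p under the other settings, 0.392 (limma with the replicate block), missed the threshold. SLC7A11, the cystine importer of many tumours, stood at -0.19 with overlapping groups.

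**Figure D3:**
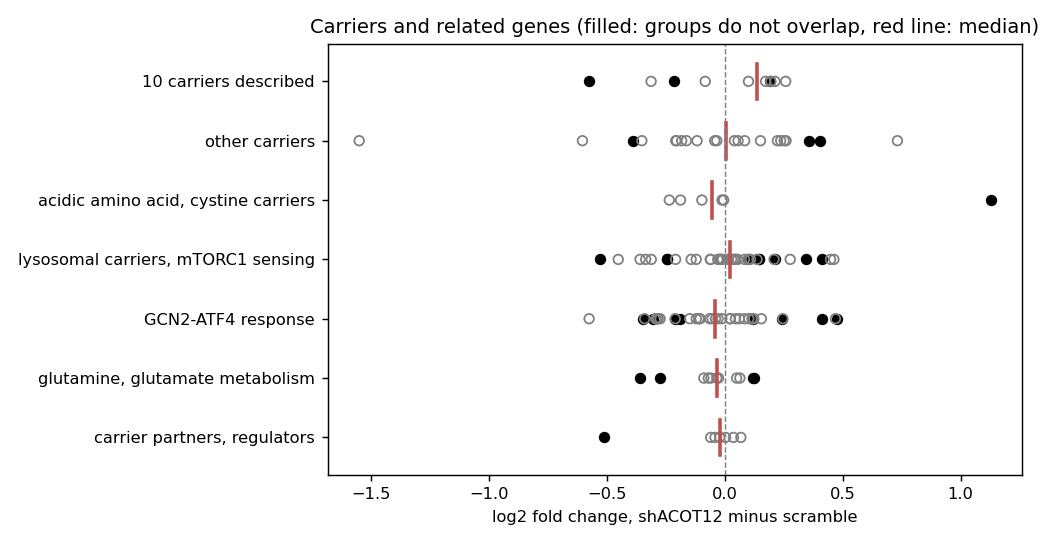
Log2 fold change, shACOT12 minus scramble (horizontal axis), of each measured gene in the 10 carriers and the 6 lists around them, with filled points where the groups do not overlap and a red line at the median of each set. The medians lie between -0.05 and 0.14. SLC1A3 lies at 1.13 with groups that do not overlap, and SLC6A19 at -1.55 with groups that overlap.

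Genes that sense amino acids were spread on both sides of 0. Of 38 measured genes of the lysosomal carriers and the mTORC1 sensing machinery, 21 were positive and 17 negative (median 0.02). Without overlap 6 were higher and 3 lower, where 11.5% of all genes were higher and 10% lower. SLC15A4, a lysosomal histidine and peptide carrier, had 10.49 and 10.38 on the shACOT12 arrays, against 10.88 and 11.05 on the scramble arrays, a log2 fold change of -0.53. SESN2, a leucine sensor that ATF4 induces, had 13.29 and 13.51 on the shACOT12 arrays, against 13.17 and 12.82 on the scramble arrays, a log2 fold change of 0.41 that was 0.24 without scramble replicate 2. Both had an adjusted p of 1 (limma). In both the groups did not overlap, which the rule for naming them required.

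Of 37 measured genes of the GCN2 and ATF4 starvation response, 16 were positive and 21 negative, with a median of -0.04. In each direction 4 did not overlap, where 11.5% of all genes were higher and 10% lower without overlap. Without 1 array the number positive ranged from 12 to 25. ATF4 itself stood at 0.10 and ASNS, the asparagine synthetase that ATF4 induces, at 0.12. ALDH18A1, an enzyme of proline synthesis, stood at -0.35, with 10.57 and 10.44 on the shACOT12 arrays, against 10.59 and 11.12 on the scramble arrays. It was -0.08 without scramble replicate 2 and -0.61 without scramble replicate 1. None of the 3 passed the threshold (limma adjusted p = 1).

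Of 11 measured genes of glutamine and glutamate metabolism, 4 were positive and 7 negative (median -0.03). GCLM, the modifier subunit of the enzyme that starts glutathione synthesis from glutamate, stood at -0.36, with 13.80 and 13.49 on the shACOT12 arrays, against 14.14 and 13.86 on the scramble arrays, and at -0.20 without shACOT12 replicate 2 and -0.22 without scramble replicate 1. GLUL, the glutamine synthetase, stood at -0.28, and its second, dimmer probe at 0.01. For GLUL the brighter probe gave -0.07 without shACOT12 replicate 2 and -0.48 without shACOT12 replicate 1. Of 7 partners and regulators the groups did not overlap for 1, against 21.5% of all genes. This was MYC, a transcription factor known to raise SLC7A5 and SLC1A5 in tumours. It had 11.89 and 11.88 on the shACOT12 arrays, against 12.05 and 12.74 on the scramble arrays, a log2 fold change of -0.51 that was -0.17 without scramble replicate 2. GCLM, GLUL and MYC each had an adjusted p of 1 (limma).

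The genes nearest in pattern to the brighter SLC7A2 probe, by Euclidean distance of the 4 log2 values less their mean, were PRKAR2B at 0.06, CNOT7 at 0.10 and DCDC2 at 0.13. CNOT7 had 13.57 and 13.64 on the shACOT12 arrays, against 14.18 and 14.15 on the scramble arrays. The likeness is over 4 arrays and is given as a description. CNOT7 is the third measured protein-coding gene from SLC7A2 in the order of chromosome 8, which led to the neighbours of all 10 carriers being read after these values had been seen.

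For each carrier the 10 measured protein-coding genes on each side were taken from the RefSeq gene order. The 20 neighbours of SLC7A2 had a median log2 fold change of -0.29, with 19 of 20 negative and 8 of 20 lower in shACOT12 cells without overlap, where 10% of all genes were lower without overlap. None of the 20 passed the threshold by itself (limma). For the other 9 carriers the median of the neighbours lay between -0.12 and 0.11; SLC38A1, SLC38A2 and SLC38A4, which adjoin each other, share most of theirs. Without 1 array the median for SLC7A2 ranged from -0.42 to -0.28. It was -0.43 over 5 neighbours on each side, all 10 negative, and -0.20 over 20 on each side. Directly beside SLC7A2, MTMR7 stood at -0.52 and PDGFRL at -0.18, both with overlapping groups. Within 4 places, VPS37A, a subunit of the ESCRT-I sorting complex, stood at -0.64 and CNOT7, a subunit of the CCR4-NOT deadenylase, at -0.56. There too MTUS1 was at -0.54, ZDHHC2, a palmitoyltransferase, at -0.46, PCM1 at -0.41 and FGL1 at -0.16. The acetyltransferase NAT2 stood at -0.45, and 7 places away it had 11.99 and 12.04 on the shACOT12 arrays, against 12.52 and 12.40 on the scramble arrays. The dimmer SLC7A2 probe, at 0.41, ran against these neighbours.

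**Figure D4:**
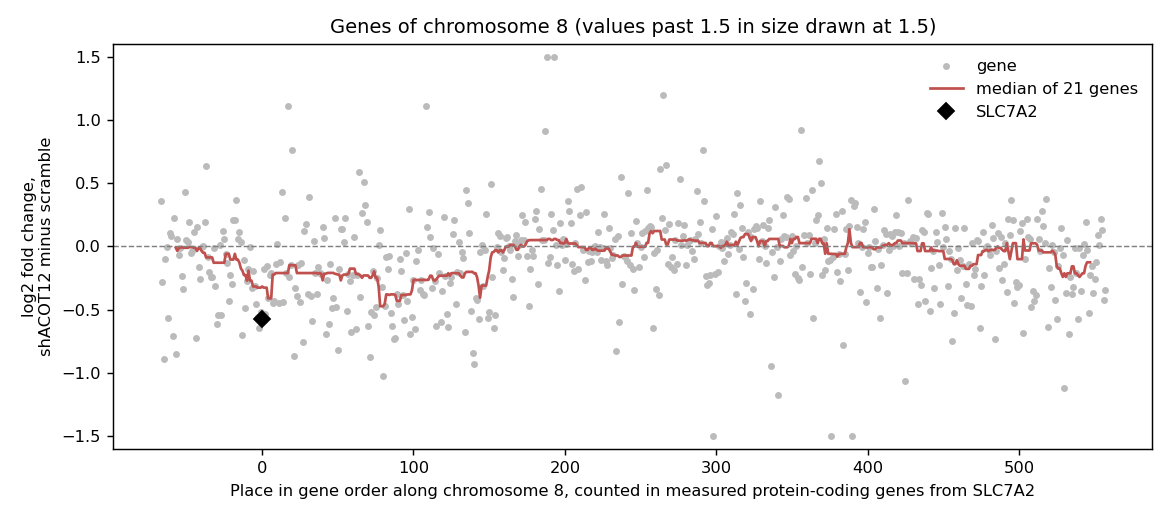
Log2 fold change, shACOT12 minus scramble (vertical axis), of the 625 measured protein-coding genes of chromosome 8 in their order, counted from SLC7A2 (horizontal axis), with the running median of 21 genes in red. The running median is -0.32 at SLC7A2 and stays below -0.12 at every gene from place -15 to 150.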

How the data were processed

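Huh7 RNA was amplified to aminoallyl RNA and coupled to Cy5, per the labels' protocols. The values used were the linear intensities the authors deposited, 1 column for each of 4 samples; scanner, background correction and normalization are not stated in the sources used here. Intensities below 0 numbered 221 and 1 on the shACOT12 arrays and 4 and 75 on the scramble arrays. Values under 1 were set to 1 (264 and 3 probes on the shACOT12 arrays, 9 and 87 on the scramble arrays) and converted to log2. Because the arrays' log2 medians differed by 0.46, they were quantile normalized, which would hide a shift of most genes. Median intensities were 327 and 451 on the shACOT12 arrays and 377 and 395 on the scramble arrays.

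Of 28264 probes, 25893 had 1 gene symbol, 0 several and 2371 none. All symbols matched RefSeq (GRCh38.p14) by gene identifier. A gene was represented by its brightest probe. The test was limma 3.58.1 (R 4.3.3), with Benjamini-Hochberg adjustment over 19090 genes and a threshold of 0.05, and the fit was tested on simulated data. The members, lists and rules were chosen with earlier results of these data known. All 10 members and ACOT12 were named. From each other list the rule took the 2 largest differences at or above the median of all genes without overlap, and SLC6A19, SLC36A2, SLC7A11, ATF4 and ASNS were named after their values were seen. The alternatives tried were 3 other scalings, a higher floor, a filter on dim genes, an intensity trend, the mean of probes, the replicate block and leaving out each array.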

Additional observations from a re-analysis of the deposited data

How the results depend on the processing

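None of the 10 carriers passed the threshold under any of the 8 other settings or without any 1 array (limma, lowest adjusted p = 0.928), and none changed sign under the 8 other settings. The count of all genes past the threshold, 1 in the fit described, was 0 without normalization, with cyclic loess, with 75th percentile scaling and with a floor at the 20th percentile, 3 with the prior following intensity and 25 with the replicate number as a block; the cause was not tested. Without 1 array it was 0 to 4. At an unadjusted p under 0.05 the count was 336, 157 with values as deposited and 704 with the replicate block. Leaving out 1 array gave ranges that crossed 0 for SLC7A1 (-0.25 to 0.45), SLC1A5 (-0.059 to 0.40), SLC38A1 (-0.27 to 0.10), SLC38A3 (-0.080 to 0.51) and SLC38A4 (-0.55 to 0.94), 7 changes of sign in 40. The mean of the probes moved SLC7A2 to -0.08 from a single probe's -0.58. Same-numbered arrays deviated together over genes (correlation 0.18, or 0.28 over genes at or above the median level). With 2 pairs this cannot show that the numbers pair the samples. The replicate block called 0 of the 10 carriers. Over all genes the 2 shACOT12 arrays were the least alike pair (Pearson correlation 0.979). The most alike pair was shACOT12 replicate 1 and scramble replicate 1 (0.988). Genes at or above the median level gave another order. There the SD of the difference was 0.47 between the shACOT12 arrays and 0.51 between the scramble arrays. It was largest, at 0.53, between shACOT12 replicate 1 and scramble replicate 2. The median of the neighbours of SLC7A2 lay between -0.32 and -0.20 under the 8 other settings.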

Other observations

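The low values around SLC7A2 reached beyond its neighbours. In windows of 21 measured protein-coding genes, each centred on 1 gene, the median log2 fold change of the SLC7A2 window was -0.32, and 41 of 17463 windows, or 0.235%, were as low or lower. The lowest window, at -0.47, was centred on NUGGC, also on chromosome 8, and the highest, at 0.39, on H2AC7, a replication-dependent histone gene. Most of the windows as low lay in the chromosome 8 run described below, with the SLC7A2 window among them. All windows share genes with others, and they were read after the values had been seen. The share therefore does not measure how rare such a stretch is.

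An unbroken run of windows below the 5th percentile of all windows (-0.12) held SLC7A2 and stretched along chromosome 8 over 166 measured genes, between USP17L2 and POLB. Of these, 126 had a negative log2 fold change. Without overlap, 57 were lower in shACOT12 cells, or 34.3%, and 8 higher, where 10% of all genes were lower and 11.5% higher. The median of the run was -0.25 and ranged from -0.33 to -0.22 without 1 array. The other 459 measured genes of chromosome 8 had a median of -0.01, with 52.9% negative and 14.8% lower without overlap. The run was chosen by these values, so they describe it and test nothing, and its part in the SLC7A2 difference was not tested.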
